A study of Homo sapiens with 16 samples.

Results

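The genes described here are 36 splicing regulators chosen by name: 10 SR protein genes (SRSF1 to SRSF7, SRSF9, SRSF10 and SRSF11), 4 relatives with arginine and serine rich stretches (TRA2A, TRA2B, SRRM1 and SRRM2), 18 genes of the hnRNP class including PTBP1, and the 4 CLK kinases. All 36 were found among the 28502 gene symbols listed, by exact symbol, and each had a mean of at least 1 FPKM (fragments per kilobase of transcript, scaled to the mapped fragments of the library). The RNA came from HCT116, an established human colorectal carcinoma line, in bulk culture. Cells were transfected with siRNA against EZH1 (siEZH1), an enzyme of the Polycomb system that methylates histone H3, with siRNA against UXT (siUXT), a small prefoldin-like protein, or with a control labelled NC, and were then given tumour necrosis factor (TNF) or phosphate-buffered saline (PBS). This made 6 conditions, siEZH1 TNF, siEZH1 PBS, siUXT TNF, siUXT PBS, NC TNF and NC PBS, with 1 poly(A) RNA-seq library each. No source used here gives the TNF dose, its duration or what NC abbreviates, and the 10 chromatin samples of the series were not analysed here.

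SR proteins bind RNA through RNA recognition motifs and use a tail of arginine-serine repeats to recruit the splicing machinery, often to exonic enhancers. Members of the hnRNP class coat nascent transcripts and frequently counteract SR proteins at exonic or intronic silencers. CLK kinases phosphorylate the arginine-serine tail and thereby release SR proteins from nuclear speckles. Many of these genes control their own transcripts through poison exons and nonsense-mediated decay, so that a gene-level value mixes productive and unproductive isoforms. FPKM per gene symbol cannot separate them, and in bulk RNA fewer expressing cells cannot be told apart from less RNA per cell.

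The libraries differed in ways that bear on every result below. UXT was at 24.6 FPKM in siUXT TNF and 27.7 in siUXT PBS, against 59.6 in NC TNF and 62.2 in NC PBS. EZH1 was at 4.14 in siEZH1 TNF and 4.05 in siEZH1 PBS, against 5.12 and 5.45 in the same NC libraries. Its log2 ratios to NC in siEZH1 were -0.25 under TNF and -0.35 under PBS, short of 1.5-fold. Those of UXT in siUXT were -1.24 and -1.14. The NF-kB targets NFKBIA, IL8 (CXCL8) and TNFAIP3 were higher in all 3 TNF libraries than in any PBS library, with mean log2 differences of 3.54, 6.52 and 4.07. The epithelial markers EPCAM, KRT8, KRT18, KRT19, CDH1 and CLDN7 were at or above 24.7 FPKM in every library, while LGALS4 and CDX1 stayed at or under 0.15. KRT19 has the same values as JUP, so that level cannot be assigned to KRT19. Of 12 markers of blood, stromal, endothelial or liver cells, at most 2 reached 1 FPKM in any library (COL1A1 and CD68), and PTPRC, CD3E, MS4A1 and HBB were listed at 0 in all 6. The siUXT PBS library stood apart: 16.4% of 11845 tested loci were at least 1.5-fold lower in it than in NC PBS and 4.11% higher, against 3.06% lower and 3.12% higher in siUXT TNF compared with NC TNF. Ratios were formed from FPKM + 1 unless stated otherwise.

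Expression of the 36 genes spanned from a mean of 3.43 FPKM for CLK4 to 707 for HNRNPA1. Together they made up 1.14% and 1.23% of all FPKM in siEZH1 TNF and siEZH1 PBS, 1.05% and 0.930% in siUXT TNF and siUXT PBS, and 0.989% and 1.06% in NC TNF and NC PBS. The hnRNP class supplied most of this, between 0.704% in siUXT PBS and 0.934% in siEZH1 PBS, and SR genes between 0.175% and 0.243% in the same libraries. Both families were therefore lowest in siUXT PBS and highest in siEZH1 PBS. The hnRNP sum includes the loci listed as HNRNPL and HNRNPH2, which share their values with ECH1 and RPL36A. In siUXT PBS these loci were at 388 and 309 FPKM, within a sum of 3651 FPKM for the class. The ratio of the highest to the lowest library was under 1.5 in 18 of the 36 genes and ran from 1.08 for SRSF9 to 4.77 for CLK1. It exceeded 2 in 5 genes, CLK1, CLK4, SRSF1, SRSF10 and HNRNPD.

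**Figure D1:**
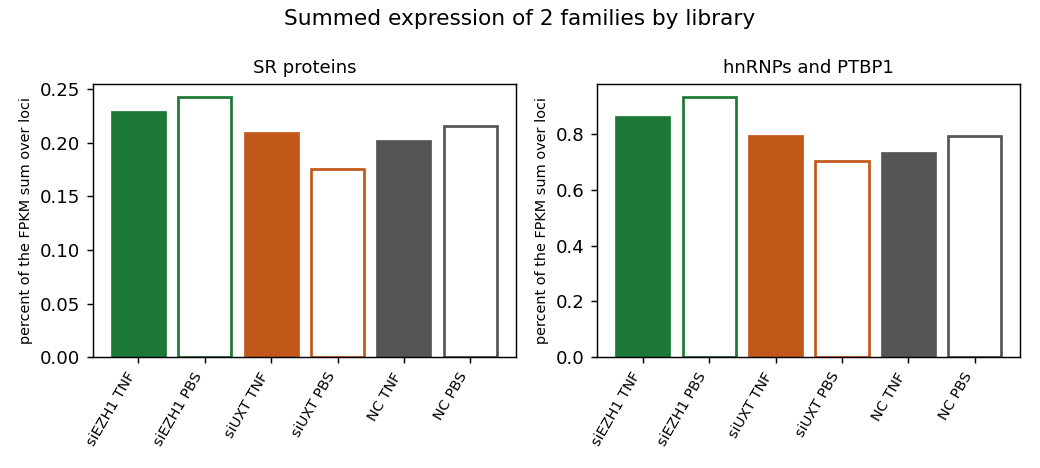
Summed FPKM of the 10 SR genes (left) and the 18 genes of the hnRNP class (right) as a percent of the FPKM sum over all loci, in each of the 6 libraries. Filled bars are TNF libraries, open bars PBS libraries, with 1 library per bar. The siEZH1 PBS library is highest and siUXT PBS lowest in both panels. The right panel includes the loci listed as HNRNPL and HNRNPH2, whose values are shared with ECH1 and RPL36A.

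The 5 genes with the widest range are shown by their promoters, since they varied most between libraries. Sequences are RefSeq windows on GRCh38.p14 from 250 bases before to 50 bases after the gene start, all on the minus strand and written 5′ to 3′. Capitals mark matches, on either strand, to the letters CCAAT of the box of that name, the GC box GGGCGG, the cyclic AMP response element core TGACGT, the E-box CACGTG or the AP-1 site TGANTCA; a kappa-B-like site was also searched. The positions are chr2:200864609-200864908 for CLK1, chr5:178627001-178627300 for CLK4, chr17:58007197-58007496 for SRSF1, chr1:23980278-23980577 for SRSF10 and chr4:82373942-82374241 for HNRNPD.
CLK1: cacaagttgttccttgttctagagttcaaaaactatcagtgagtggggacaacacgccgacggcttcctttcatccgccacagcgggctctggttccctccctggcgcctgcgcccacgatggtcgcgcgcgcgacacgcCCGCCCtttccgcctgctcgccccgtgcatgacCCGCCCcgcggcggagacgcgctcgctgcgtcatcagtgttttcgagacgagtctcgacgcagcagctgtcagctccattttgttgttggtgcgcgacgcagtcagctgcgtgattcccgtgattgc
CLK4: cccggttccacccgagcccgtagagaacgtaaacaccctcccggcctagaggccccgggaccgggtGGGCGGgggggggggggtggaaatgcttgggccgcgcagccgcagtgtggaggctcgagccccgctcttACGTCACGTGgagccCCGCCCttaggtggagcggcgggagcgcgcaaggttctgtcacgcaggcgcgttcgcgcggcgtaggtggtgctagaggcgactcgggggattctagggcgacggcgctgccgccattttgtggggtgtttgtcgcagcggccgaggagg
SRSF1: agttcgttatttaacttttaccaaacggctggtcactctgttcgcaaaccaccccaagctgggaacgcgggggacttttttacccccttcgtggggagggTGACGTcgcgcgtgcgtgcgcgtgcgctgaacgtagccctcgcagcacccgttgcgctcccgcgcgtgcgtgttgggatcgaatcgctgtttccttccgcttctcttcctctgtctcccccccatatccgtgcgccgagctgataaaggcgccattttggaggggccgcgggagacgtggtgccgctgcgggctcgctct
SRSF10: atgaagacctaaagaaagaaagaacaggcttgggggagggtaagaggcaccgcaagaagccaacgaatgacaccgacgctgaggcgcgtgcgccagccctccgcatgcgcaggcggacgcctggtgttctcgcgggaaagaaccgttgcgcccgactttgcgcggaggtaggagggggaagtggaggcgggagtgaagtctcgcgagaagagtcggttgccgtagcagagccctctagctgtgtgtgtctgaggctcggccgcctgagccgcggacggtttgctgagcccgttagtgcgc
HNRNPD: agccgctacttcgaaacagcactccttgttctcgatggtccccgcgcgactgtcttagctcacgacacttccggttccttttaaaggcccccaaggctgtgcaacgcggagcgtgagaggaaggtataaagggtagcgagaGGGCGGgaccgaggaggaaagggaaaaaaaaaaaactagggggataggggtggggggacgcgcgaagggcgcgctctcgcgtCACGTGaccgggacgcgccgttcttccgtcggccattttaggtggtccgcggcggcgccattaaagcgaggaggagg
A GC box was present in CLK1, CLK4 and HNRNPD, an E-box in CLK4 and HNRNPD, and TGACGT in CLK4 and SRSF1; in CLK4 the TGACGT match overlaps the E-box, and the SRSF10 window held none of the 6 motifs. Windows were found for 33 of the 36 genes (not for SRSF2, TRA2A and HNRNPA1). TGACGT occurred in 8 of the 33 (24.2%) and the palindromic E-box in 8 (24.2%), against 9.67% and 8.88% of 15842 protein-coding promoters. CCAAT occurred in 15 (45.5% against 36.4% of all), the GC box in 22 (66.7% against 58.5%), the kappa-B-like site in HNRNPF alone (3.03% against 1.94%) and the AP-1 site in 0 (against 5.75%). These are letter matches in 1 window per gene, not measured binding.

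After siEZH1, most of the splicing genes were modestly above their NC levels. In 24 of the 36 genes both siEZH1 libraries lay above both NC libraries, which is 66.7% of the genes against 31.1% of all tested loci, and in 3 (8.33% against 28.4% of loci) both lay below: HNRNPA0, PTBP1 and CLK2. The median log2 ratio was 0.21 under TNF and 0.17 under PBS, against 0.02 and 0.00 over all loci. By family, the medians under TNF and PBS were 0.27 and 0.20 for SR genes, 0.05 and 0.06 for the TRA2 and SRRM group, 0.29 and 0.21 for the hnRNP class, and 0.07 and 0.27 for the CLK kinases. At least 1.5-fold higher were CLK1 and HNRNPA1, both under TNF (5.56% of the 36 against 3.71% of loci) and under PBS (5.56% against 2.13%). None of the 36 was 1.5-fold lower, against 6.05% of loci under TNF and 5.15% under PBS. No gene of the 36 passed limma's test over all 6 libraries (Benjamini-Hochberg adjusted p from 0.602 to 0.990). Unadjusted p was under 0.05 for 2 of the 36, HNRNPA1 and HNRNPH3, and for 8.21% of all loci; at the adjusted threshold limma called 0.00% of loci higher and 0.0169% lower.

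HNRNPA1, which binds exonic and intronic silencers and antagonises SRSF1, was at 829 FPKM in siEZH1 TNF and 878 in siEZH1 PBS, at 714 in siUXT TNF and 693 in siUXT PBS, and at 543 in NC TNF and 585 in NC PBS. Both siEZH1 libraries were the highest of the 6 and both NC libraries the lowest, with no overlap. The mean difference was 0.60 ± 0.13 on the log2(FPKM + 1) scale (SE, limma, Benjamini-Hochberg adjusted p = 0.602). This SE, like those below, uses a variance that limma partly pools over all loci. Reads of HNRNPA1 may be shared with its processed copies, so its level is uncertain; the listed copy HNRNPA1L2 was at 3.6 and 5.06 FPKM in siEZH1 TNF and PBS, against 4.50 and 6.46 in NC TNF and PBS.

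HNRNPH3, a G-rich sequence binder of the H/F subfamily, was at 54.5 FPKM in siEZH1 TNF and 62.3 in siEZH1 PBS, at 57.0 in siUXT TNF and 43.6 in siUXT PBS, and at 37.9 in NC TNF and 43.6 in NC PBS. It was higher in siEZH1 by 0.51 ± 0.21 (SE; limma, Benjamini-Hochberg adjusted p = 0.602), and siUXT PBS lay at the NC PBS value. Its relative HNRNPH1 was at 254 and 267 FPKM in siEZH1 TNF and PBS, against 181 and 204 in NC TNF and PBS.

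HNRNPA0 and PTBP1 went the other way in both siEZH1 libraries. HNRNPA0, a binder of AU-rich elements, was at 104 FPKM in siEZH1 TNF and 93.7 in siEZH1 PBS, at 92.7 in siUXT TNF and 84.0 in siUXT PBS, and at 128 in NC TNF and 114 in NC PBS. All 4 knockdown libraries were below both NC libraries. PTBP1, the polypyrimidine tract binding repressor of many alternative exons, was at 174 FPKM in siEZH1 TNF and 160 in siEZH1 PBS, at 170 in siUXT TNF and 212 in siUXT PBS, and at 214 in NC TNF and 195 in NC PBS. The siEZH1 differences were -0.29 ± 0.15 for HNRNPA0 and -0.29 ± 0.17 for PTBP1 (SE; limma, Benjamini-Hochberg adjusted p = 0.606 and 0.628). SRRM2, a large scaffold of nuclear speckles, completed the 3 lowest siEZH1 differences at 68.9 FPKM in siEZH1 TNF and 57.4 in siEZH1 PBS, 59.5 in siUXT TNF and 80.4 in siUXT PBS, and 70.2 in NC TNF and 68.8 in NC PBS. Its siEZH1 and NC libraries overlapped.

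The absence of siEZH1 calls over 6 libraries depended on having both siUXT libraries in the fit, since their disagreement enters the error of every comparison. Without siUXT PBS, limma with Benjamini-Hochberg adjustment called 15 of the 36 genes higher in siEZH1 (41.7%) and 2 lower (5.56%), against 11.8% and 14.7% of all loci. Without siUXT TNF instead, the counts were again 15 and 2, against 11.3% and 14.8%. Unadjusted p was under 0.05 for 42.3% and 42.4% of loci in these 2 fits. Their residual spread came from the siEZH1 and NC libraries alone, with 1 residual degree of freedom. A lone siUXT library adds nothing to the estimate or the residual of siEZH1 against NC. The fit without siUXT TNF therefore repeats the fit without siUXT PBS and is not separate evidence. Whether cells for TNF and PBS were transfected separately is not stated; if they were not, that spread leaves out variation between transfections. The 15 were SRSF1, SRSF3, SRSF6 and SRSF7 among SR genes, 10 of the hnRNP class (HNRNPA1, HNRNPA2B1, HNRNPA3, HNRNPD, HNRNPH1, HNRNPH2, HNRNPH3, HNRNPK, HNRNPR and HNRNPU) and CLK1. Their differences ran from 0.23 for HNRNPH2 and HNRNPK to 0.68 ± 0.09 (SE) for CLK1, whose limma Benjamini-Hochberg adjusted p was 0.00965. HNRNPA0 and PTBP1 were the 2 called lower, and no member of the TRA2 and SRRM group was called. HNRNPH2 has the same values as the ribosomal protein gene RPL36A, so its call cannot be assigned to the hnRNP gene.

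**Figure D2:**
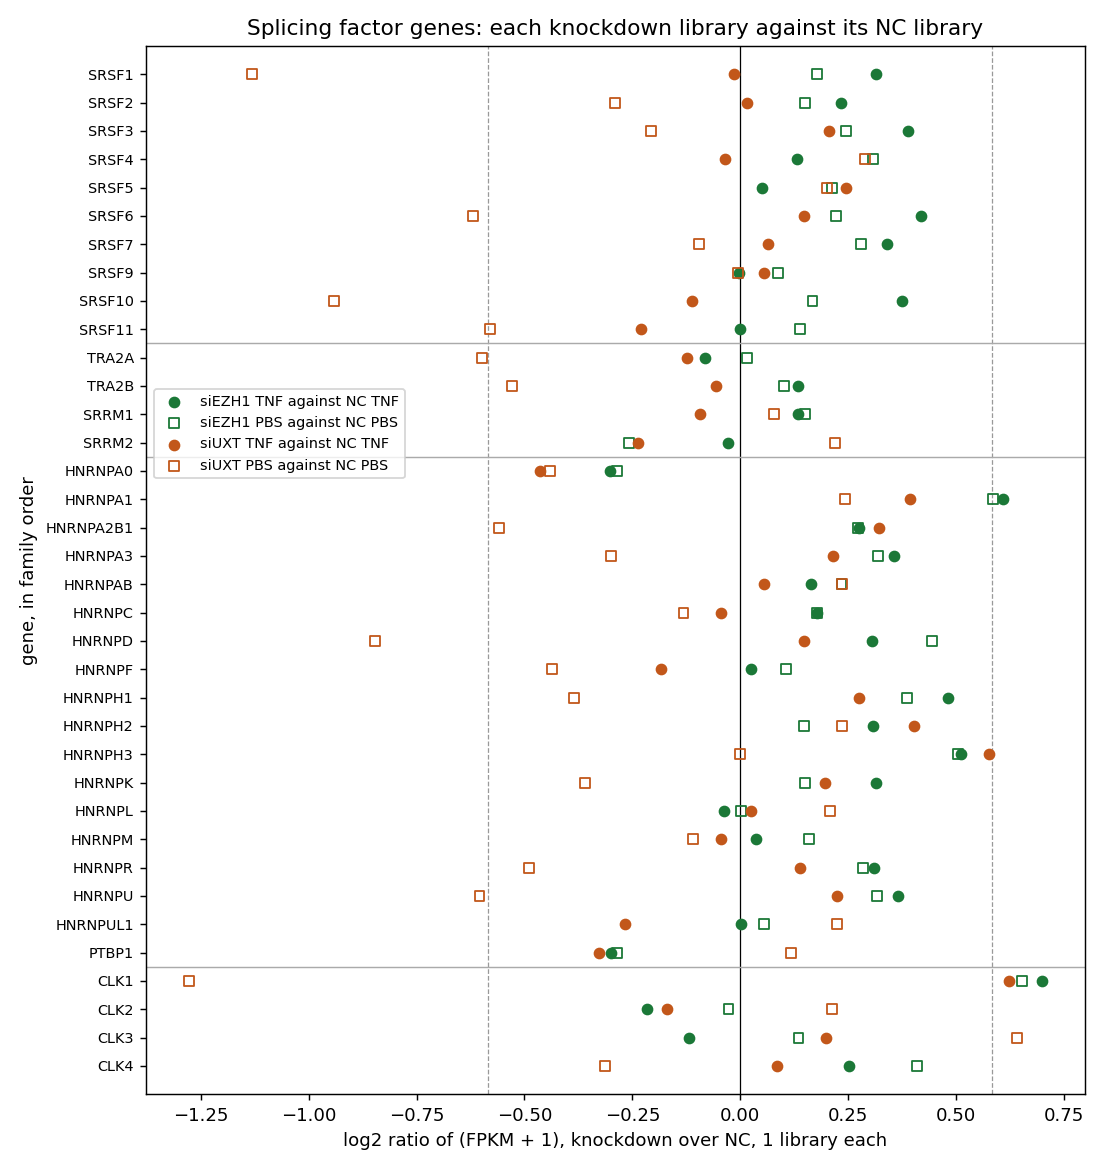
Log2 ratio of FPKM + 1 for the 36 genes (rows, grouped by family) in siEZH1 (green) and siUXT (orange) against the NC library of the same treatment, with filled circles for TNF and open squares for PBS; each symbol is 1 library against 1 library and dashed lines mark 1.5-fold. Most green symbols lie right of 0, and the orange squares of siUXT PBS extend left to -1.28 for CLK1.

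In siUXT PBS, 24 of the 36 genes were lower than in NC PBS (66.7%, against 46.4% of all loci), whereas in siUXT TNF 15 were lower than in NC TNF (41.7%, against 47.8% of loci) and 21 higher (58.3%, against 52.0%). The median log2 ratio was -0.25 under PBS and 0.06 under TNF, against 0.04 and 0.01 over all loci. At least 1.5-fold lower in siUXT PBS were 7 genes (19.4%), namely CLK1, SRSF1, SRSF10, HNRNPD, SRSF6, HNRNPU and TRA2A; this share is near the 16.4% of all loci. At least 1.5-fold higher was CLK3 alone (2.78% against 4.11%). In siUXT TNF against NC TNF, CLK1 alone was at least 1.5-fold higher (2.78% against 3.12% of loci) and 0 were lower (against 3.06%). For 23 of the 36 genes (63.9%) siUXT PBS was the lowest of the 6 libraries, against 30.6% of all loci.

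SRSF1, the founding SR protein, was at 105 FPKM in siEZH1 TNF and 102 in siEZH1 PBS, at 83.2 in siUXT TNF and 40.4 in siUXT PBS, and at 84.0 in NC TNF and 89.7 in NC PBS. Only siUXT PBS departed from the range of 83.2 to 105 of the other libraries, at 0.451 of NC PBS. SRSF10, which represses splicing when dephosphorylated, was at 14.6 FPKM in siEZH1 TNF and 13.5 in siEZH1 PBS, at 10.2 in siUXT TNF and 5.70 in siUXT PBS, and at 11.1 in NC TNF and 11.9 in NC PBS. HNRNPD (AUF1), a regulator of mRNA decay, was at 148 FPKM in siEZH1 TNF and 169 in siEZH1 PBS, at 132 in siUXT TNF and 68.5 in siUXT PBS, and at 119 in NC TNF and 124 in NC PBS. All 3 genes shared the pattern of a single low library, siUXT PBS.

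Other SR and TRA2 genes were lower in siUXT PBS by smaller amounts. In siUXT PBS, SRSF6 had 65.2 FPKM, SRSF11 had 36.5, TRA2A had 50.3 and TRA2B, a sequence-specific splicing activator, had 31.9. The NC PBS values of SRSF6, SRSF11, TRA2A and TRA2B were 101, 55.0, 76.6 and 46.5 FPKM. SRSF2, SRSF3 and SRSF7 had log2 ratios of -0.29, -0.21 and -0.10, and SRSF9 of 0.00. SRSF4 and SRSF5 were higher, at 0.29 and 0.20. SRSF4 was at 33.7 FPKM in siEZH1 TNF and 31.8 in siEZH1 PBS, at 29.9 in siUXT TNF and 31.4 in siUXT PBS, and at 30.6 in NC TNF and 25.5 in NC PBS, so that NC PBS was the low library for this gene.

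Among the most abundant hnRNP genes the siUXT PBS library was also mostly low. HNRNPA2B1, a reader of RNA in splicing and transport, was at 322 FPKM in siEZH1 TNF and 384 in siEZH1 PBS, at 333 in siUXT TNF and 215 in siUXT PBS, and at 266 in NC TNF and 317 in NC PBS. HNRNPK, a poly(C) binder, was at 377 FPKM in siEZH1 TNF and 375 in siEZH1 PBS, at 347 in siUXT TNF and 263 in siUXT PBS, and at 303 in NC TNF and 338 in NC PBS. HNRNPC, which binds uridine tracts, was at 524 FPKM in siEZH1 TNF and 510 in siEZH1 PBS, at 449 in siUXT TNF and 412 in siUXT PBS, and at 463 in NC TNF and 451 in NC PBS. In each of these 3 genes siUXT PBS was the lowest library, but the size differed, with log2 ratios to NC PBS of -0.56, -0.36 and -0.13. HNRNPA3, HNRNPF, HNRNPH1, HNRNPM, HNRNPR and HNRNPU were likewise lowest in siUXT PBS, with ratios from -0.60 for HNRNPU to -0.11 for HNRNPM.

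Several hnRNP genes ran against this. HNRNPAB was at 188 FPKM in siEZH1 TNF and 183 in siEZH1 PBS, at 174 in siUXT TNF and 183 in siUXT PBS, and at 168 in NC TNF and 155 in NC PBS. The locus listed as HNRNPL was at 341 FPKM in siEZH1 TNF and 336 in siEZH1 PBS, at 356 in siUXT TNF and 388 in siUXT PBS, and at 350 in NC TNF and 336 in NC PBS. HNRNPA1 and HNRNPH2 (ratios of 0.24 each) and HNRNPUL1 (0.22) were the other higher genes besides PTBP1 (0.12). HNRNPL has the same values as ECH1, an enzyme of fatty acid oxidation, and HNRNPH2 the same as the ribosomal protein gene RPL36A, so these values cannot be assigned to the hnRNP genes. Without both, the median in siUXT PBS was -0.29 over 34 genes, and in siEZH1 it was 0.21 under TNF and 0.18 under PBS. In all, 8 of the 36 genes share their values with another symbol; for the other 6 this is a microRNA or an unnamed transcript record.

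**Figure D3:**
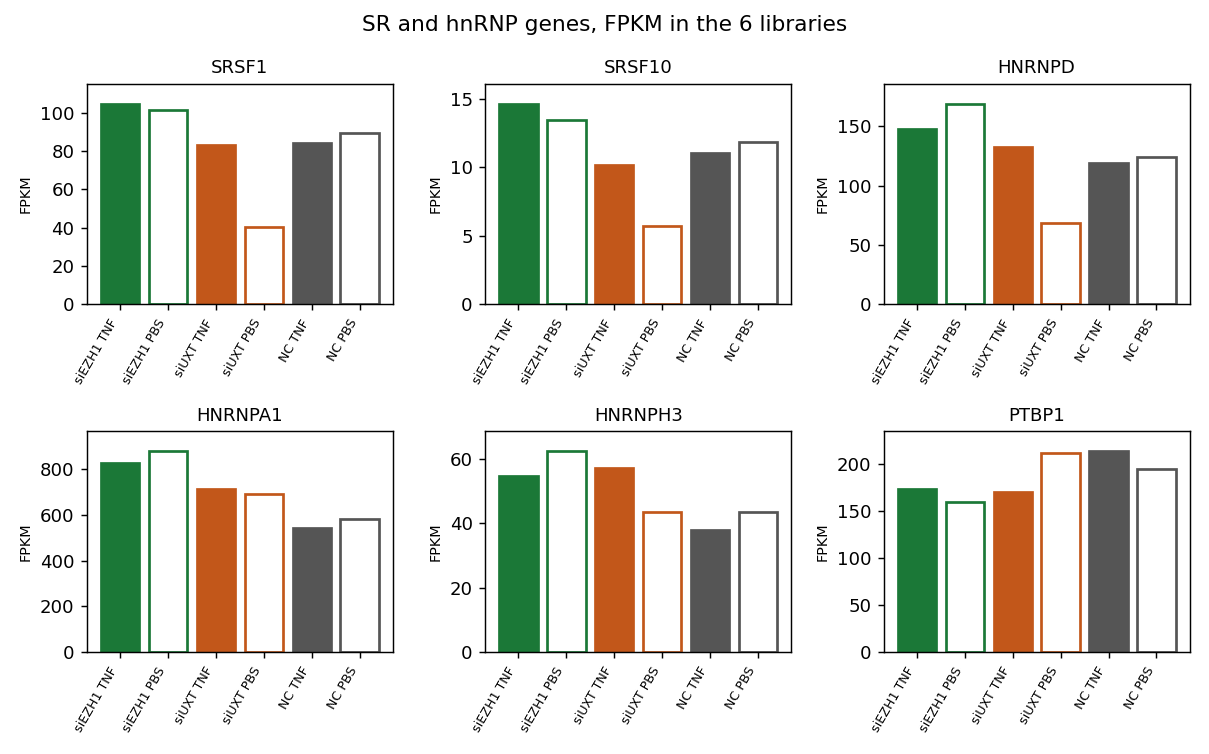
FPKM of 6 SR and hnRNP genes in the 6 libraries, 1 library per bar, filled for TNF and open for PBS. SRSF1, SRSF10 and HNRNPD are low in siUXT PBS alone, HNRNPA1 is highest in both siEZH1 libraries, and PTBP1 is lower in both siEZH1 libraries than in NC.

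No gene of the 36 passed the test for siUXT over all 6 libraries (limma, Benjamini-Hochberg adjusted p from 0.908 to 1.00), where limma called 0.0253% of loci higher and 0.0169% lower. HNRNPA0 and HNRNPA1, the 2 genes with unadjusted p under 0.05 (3.65% of all loci), had differences of -0.45 ± 0.15 and 0.32 ± 0.13 (SE). They were among the 15 genes that lay on the same side of NC under both treatments, 6 higher and 9 lower. Those shares compare with 22.8% of loci higher and 17.1% lower throughout. With siUXT TNF left out, the estimate came from siUXT PBS alone, taken to have the same spread as the rest; limma with Benjamini-Hochberg adjustment then called 17 of the 36 lower (47.2% against 18.4% of loci) and CLK3 higher (2.78% against 12.0%). With siUXT PBS left out it called HNRNPH3 alone, higher, with a difference of 0.57 ± 0.09 (SE; limma, Benjamini-Hochberg adjusted p = 0.0495), in a fit that called 0.439% of loci higher and 0.650% lower. The siEZH1 and siUXT comparisons share the NC libraries, so they are not independent of each other.

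The 4 CLK kinases did not move together. CLK1 was at 12.5 FPKM in siEZH1 TNF and 14.1 in siEZH1 PBS, at 11.8 in siUXT TNF and 2.95 in siUXT PBS, and at 7.30 in NC TNF and 8.57 in NC PBS. It was higher than in NC in 3 of the 4 knockdown libraries, with log2 ratios from 0.62 to 0.70, and lower in siUXT PBS, with a ratio of -1.28. CLK4, its closest relative in the family, was at 5.07 FPKM in siEZH1 TNF and 3.24 in siEZH1 PBS, at 4.41 in siUXT TNF and 1.57 in siUXT PBS, and at 4.10 in NC TNF and 2.19 in NC PBS. CLK4 was the lowest expressed of the 36 genes, and siUXT PBS was again its lowest library.

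CLK2 and CLK3 did not follow CLK1. CLK2 was at 22.0 FPKM in siEZH1 TNF and 23.0 in siEZH1 PBS, at 22.8 in siUXT TNF and 27.3 in siUXT PBS, and at 25.8 in NC TNF and 23.4 in NC PBS. CLK3 was at 21.0 FPKM in siEZH1 TNF and 20.4 in siEZH1 PBS, at 26.4 in siUXT TNF and 29.4 in siUXT PBS, and at 22.9 in NC TNF and 18.4 in NC PBS. Both were highest in siUXT PBS, the library in which CLK1 and CLK4 were lowest. The ratio of CLK1 to CLK3, both per length, was 0.595 in siEZH1 TNF and 0.691 in siEZH1 PBS, 0.446 in siUXT TNF and 0.1004 in siUXT PBS, and 0.319 in NC TNF and 0.465 in NC PBS. The summed FPKM of the 4 kinases lay between 52.6 in NC PBS and 65.4 in siUXT TNF. No CLK gene passed limma's test in any comparison over 6 libraries.

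**Figure D4:**
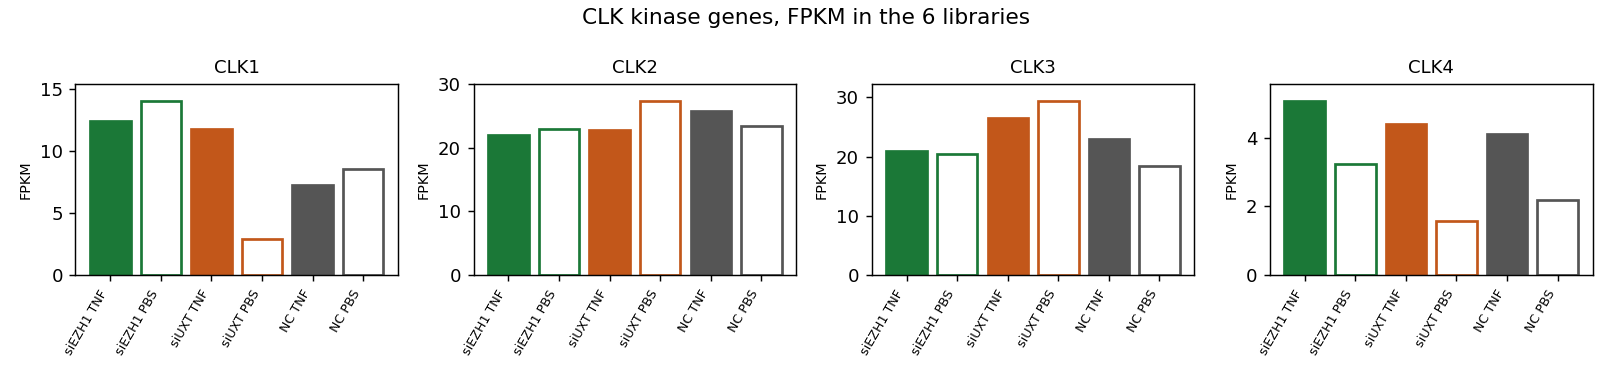
FPKM of CLK1, CLK2, CLK3 and CLK4 in the 6 libraries, 1 library per bar, filled for TNF and open for PBS. CLK1 and CLK4 are lowest and CLK2 and CLK3 highest in siUXT PBS, and CLK4 is higher under TNF than under PBS in all 3 transfections.

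TNF left the splicing genes close to their PBS levels in siEZH1 and NC cells. The median log2 ratio of TNF to PBS was -0.03 in siEZH1, 0.21 in siUXT and -0.07 in NC, against 0.01, -0.05 and -0.02 over all loci. In siEZH1 cells 0 of the 36 genes were 1.5-fold apart, against 3.22% of loci higher and 1.35% lower. In NC cells CLK4 was at least 1.5-fold higher (2.78% against 3.40% of loci) and 0 were lower (against 1.98%). In siUXT cells 7 were at least 1.5-fold higher under TNF (19.4%, against 16.8% of loci) and 0 lower (against 3.61%), with siUXT PBS as the low library. None of the 36 passed limma's test over 6 libraries (Benjamini-Hochberg adjusted p from 0.402 to 1.00), in which 0.405% of loci were called higher and 0.00844% lower. CLK4 alone had an unadjusted p under 0.05, as did 3.96% of loci. Without siUXT PBS or without siUXT TNF, again 0 of the 36 were called, while 2.47% and 2.48% of loci were called higher and 0.295% and 0.287% lower. Both fits rest on the same siEZH1 and NC libraries for this comparison, so they are not separate tests.

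CLK4 was the only gene of the 36 whose 3 TNF libraries, from 4.10 to 5.07 FPKM, lay above all 3 PBS libraries, from 1.57 to 3.24 FPKM (2.78%, against 3.47% of loci), and 0 lay below (against 3.04%). Its mean TNF difference was 0.76 ± 0.18 (SE; limma, Benjamini-Hochberg adjusted p = 0.402), with the same direction in 3 of 3 transfections. The next highest mean differences, 0.44 for CLK1 and 0.33 for SRSF1, came from siUXT: in NC the TNF to PBS ratios of these genes were -0.20 and -0.09. The 3 lowest mean differences were small. SRRM1, a coactivator with a long arginine and serine rich domain, was at 34.8 FPKM in siEZH1 TNF and 37.5 in siEZH1 PBS, at 29.5 in siUXT TNF and 35.7 in siUXT PBS, and at 31.6 in NC TNF and 33.7 in NC PBS. It was lower under TNF in each transfection, by 0.15 ± 0.14 (SE) on average, and the TNF and PBS libraries overlapped.

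The HNRNPH2 locus was at 271 FPKM in siEZH1 TNF and 290 in siEZH1 PBS, at 290 in siUXT TNF and 309 in siUXT PBS, and at 219 in NC TNF and 262 in NC PBS. It was the other gene that was lower under TNF in all 3 transfections. HNRNPUL1 was at 67.6 FPKM in siEZH1 TNF and 64.8 in siEZH1 PBS, at 55.9 in siUXT TNF and 73.0 in siUXT PBS, and at 67.5 in NC TNF and 62.4 in NC PBS, so its lower mean came from siUXT alone. Higher or lower throughout were 3 and 2 of the 36 genes, against 9.08% and 11.1% of loci.

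Other genes of the splicing machinery were compared as whole lists. None of their tested members passed limma's test over all 6 libraries in any comparison: 15 further SR and SR-like genes, 7 SR protein kinases and related genes outside the CLK family, 32 further hnRNP and auxiliary regulators, 44 core spliceosome genes and 14 nonsense-mediated decay factors. Unadjusted p under 0.05 occurred in at most 3 members of any list, the 3 of 32 auxiliary regulators in siUXT against NC. The shares of all loci were 3.96% for TNF, 8.21% for siEZH1 and 3.65% for siUXT. Without siUXT PBS, limma with Benjamini-Hochberg adjustment called members of every list in siEZH1, as it did for the 36. It called 3 of 15 SR-like genes higher (20.0%) and 0 lower, 4 of 7 kinases and related genes higher (57.1%) and 0 lower, and 13 of 32 auxiliary regulators higher (40.6%) and 3 lower (9.38%). Of the core spliceosome it called 9 of 44 higher (20.5%) and 5 lower (11.4%), and of the decay factors 2 of 14 higher (14.3%) and 3 lower (21.4%). The shares of all loci in that fit were 11.8% higher and 14.7% lower. In siUXT PBS against NC PBS the list medians were -0.32, -0.13, -0.13, 0.14 and 0.08 in that order, so the core spliceosome and decay lists were not below the median of all loci, 0.04. In siEZH1 against NC under TNF the medians were 0.14, 0.31, 0.18, 0.10 and 0.07, and under PBS 0.17, 0.35, 0.20, 0.11 and 0.14.

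Single members of these lists differed widely in siUXT PBS against NC PBS, given as log2 ratios except where FPKM is named. PTBP2, the neuronal paralog of PTBP1, had 7.16 FPKM in siUXT TNF and 0.675 in siUXT PBS, and 9.58 in NC TNF and 9.60 in NC PBS, and PTBP3 had log2 ratios of -0.97 under PBS and -0.31 under TNF. SREK1 and BCLAF1 were lowest of the SR-like genes (-1.37 and -1.28), and RSRC1 and RSRC2 highest (0.44 and 0.40). Among kinases PRPF4B and SRPK1, a cytoplasmic SR protein kinase, were lowest (-0.70 and -0.65), and DYRK1A and the locus listed as SRPK3 highest (0.51 and 0.16). SRPK3 has the same values as PLXNB3, a plexin gene, so they cannot be assigned to the kinase. In the auxiliary list ESRP2, an epithelial splicing regulator, and EWSR1 were highest (0.67 and 0.44). In the core spliceosome CWC22 and SNRPG were lowest (-1.31 and -1.27), and the Sm protein gene SNRPD2 and SF3A2 highest (0.57 and 0.54). Of the decay factors UPF2 and the kinase SMG1 were lowest (-0.90 and -0.71), and SMG5 and SMG6 highest (0.32 and 0.25). For siEZH1 the highest and lowest mean differences per list were 0.39 (RSRC1) and -0.14 (ACIN1), 0.41 (TOP1) and -0.25 (the SRPK3 and PLXNB3 locus), 0.48 (TAF15) and -0.46 (RAVER1), 0.61 (SYF2) and -0.52 (SF3B5), and 0.32 (UPF3A) and -0.37 (SMG5).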

How the data were processed

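Per the labels' protocols, poly(A) RNA was fragmented and made into libraries. Per the submitters' processing notes, FastQC, cutadapt, TopHat2, Bowtie and SICER were used with hg19; the program and annotation behind the FPKM values, and tool versions, were not given in the sources used here. The authors deposited 1 table of FPKM per library, used as deposited. Depth and strand setting are not given, so no counting interval is possible and overlapping genes or near-identical copies are uncertain.

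Symbols whose 6 values were the same were treated as 1 locus, giving 17642 loci above 0; 11845 had a mean of at least 1 FPKM. Log2(FPKM + 1) was fitted with limma 3.58.1 (R 4.3.3, eBayes with trend) as transfection plus treatment over 6 libraries, leaving 2 residual degrees of freedom, with Benjamini-Hochberg adjustment over all loci and a threshold of 0.05. The model's residual is the disagreement of an effect between the levels of the other factor. The eBayes step pools it with a trend over all loci, which carried 4.42 prior degrees of freedom. Each SE and p therefore rests partly on other loci, not on the gene's own disagreement alone. Single library pairs have no test. The fit was tested on simulated data with known changes, as a check of the code. Those data had an equal spread at every locus and no library that stood apart, so they do not test the results above. Python 3.11.15 did the rest. Low genes' changes are understated on this scale.

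Members and lists were chosen with earlier results of these data known. Of the 36 genes, those given in every library were the 4 highest and 4 lowest siUXT PBS ratios, the 3 highest and 3 lowest siEZH1 and TNF differences, the 5 highest means and the CLK genes; of other lists, the 2 highest and 2 lowest siUXT PBS ratios and the extreme siEZH1 differences; EZH1, UXT, NFKBIA, CXCL8 and TNFAIP3 always. Gene names and promoters came from RefSeq tables. Alternatives were another pseudocount, filters, scaling, eBayes without trend, unmerged symbols and left-out libraries.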

Additional observations from a re-analysis of the deposited data

Results flagged for a closer look

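The response to TNF differed in direction between siUXT and NC cells, by at least 2-fold, for 2 of the 36 genes (5.56%, against 10.3% of all loci), a share below that of all loci. The minimum is arbitrary, and with 1 library per condition neither difference was tested. CLK1 had a log2 ratio of TNF to PBS of 1.70 in siUXT and -0.20 in NC, a difference of 1.90. SRSF1 had ratios of 1.02 in siUXT and -0.09 in NC, a difference of 1.12. HNRNPD lay just outside that minimum, at 0.99. The TNF to PBS ratio was higher in siUXT than in NC for 26 of the 36 genes (72.2%, against 47.1% of all loci). For SRSF1 the difference comes from siUXT PBS, with a log2 ratio to NC PBS of -1.13, while siUXT TNF was at -0.01 relative to NC TNF. For CLK1 both libraries contribute, siUXT PBS at -1.28 relative to NC PBS and siUXT TNF at 0.62 relative to NC TNF. The siUXT PBS library also stood apart across loci, and the part of this in the differences was not tested.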

How the results depend on the processing

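The 36 genes' median ratios moved by less than 0.1 on the log2 scale with a pseudocount of 0.1 or with size factors in all 7 library pairs, and 24 were lower in siUXT PBS than in NC PBS under both. Counts of genes at least 1.5-fold higher moved with a pseudocount of 0.1 in siUXT TNF against NC TNF (2 in place of 1) and siEZH1 TNF against siEZH1 PBS (1 in place of 0). For TNF against PBS, limma called 48 loci higher and 1 lower over 6 libraries. Without a filter it called 23 higher; 0 were called lower without a filter, with size factors, with a pseudocount of 0.1 or without the eBayes trend. Without the siEZH1, siUXT or NC pair it called 103, 288 and 105 higher and 27, 35 and 26 lower, and leaving out single libraries gave 100 to 294 higher and 24 to 35 lower; 0 of the 36 genes were called under any setting. For siEZH1 against NC, 0 loci were called higher and 2 lower, 1 lower at a mean of at least 5 FPKM, and 1377 and 1724 without the siUXT pair. Leaving out single libraries gave 14 to 1396 higher and 24 to 1750 lower. Of the 36 genes it gave 0 to 15 higher and 0 to 2 lower, with 15 and 2 without the siUXT pair and 0 whenever both siUXT libraries were kept. For siUXT against NC, 3 loci were called higher and 2 lower; a pseudocount of 0.1 gave 0 and 0, a mean of at least 5 FPKM 0 and 1, and leaving out the siEZH1 pair 26 and 39. Leaving out single libraries gave 21 to 1425 higher and 25 to 2179 lower, and of the 36 genes 0 to 1 higher and 0 to 17 lower. Fits without a siEZH1 or NC library or pair had infinite prior degrees of freedom, so each locus's error came from the trend alone. Fits without siUXT libraries had 5.14 to 5.18 and also used the locus's own residual. Counts from these kinds of fit are therefore not directly comparable. Fits without a library had 1 residual degree of freedom, and a lone library of a transfection was assumed to vary like the others. That assumption is doubtful for siUXT PBS, which stood apart across loci. The cause of the other changes was not tested. The labels give no replicate numbers to block on; the transfection term already compares TNF with PBS within each transfection. Read depth, not given, limits genes of low FPKM such as CLK4 most.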

Other observations

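HNRNPU-AS1, listed beside HNRNPU and named as its antisense transcript, was at 9.91 FPKM in siEZH1 TNF and 11.6 in siEZH1 PBS, at 10.3 in siUXT TNF and 4.23 in siUXT PBS, and at 7.81 in NC TNF and 7.75 in NC PBS. HNRNPU itself was at 98.7 and 110 FPKM in siEZH1 TNF and PBS, 89.3 and 57.5 in siUXT TNF and PBS, and 76.3 and 87.9 in NC TNF and PBS. Without a stated strand setting, reads of the 2 symbols cannot be told apart where they overlap.

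Relative to NC PBS, HNRNPA1 was higher and its paralog HNRNPA2B1 lower in siUXT PBS (log2 ratios of 0.24 and -0.56). In siUXT TNF relative to NC TNF both were higher (0.39 and 0.32). The ratio of HNRNPA1 to HNRNPA2B1, both per length, was 2.57 in siEZH1 TNF and 2.29 in siEZH1 PBS, 2.14 in siUXT TNF and 3.22 in siUXT PBS, and 2.04 in NC TNF and 1.84 in NC PBS. The ratio of TRA2B to TRA2A stayed between 0.607 in NC PBS and 0.724 in siEZH1 TNF.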
